A study of Rattus norvegicus with 6 samples.

Results

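The 8 genes described here encode the brain's main cannabinoid receptor and the enzymes that make and break down its endogenous ligands: Cnr1, Dagla, Daglb, Mgll, Abhd6, Abhd12, Napepld and Faah. They were taken by symbol from the 32883 features counted in every library, and each of the 8 symbols matched 1 feature. Cannabinoid receptor 1, the product of Cnr1, is a G protein-coupled receptor of axon terminals that lowers transmitter release when endocannabinoids reach it from the postsynaptic side. The ligand 2-arachidonoylglycerol (2-AG) is made by the diacylglycerol lipases of Dagla and Daglb and is hydrolysed by the products of Mgll, Abhd6 and Abhd12. Anandamide can be released from its phospholipid precursor by the enzyme of Napepld and is hydrolysed by that of Faah. In the striatum this system tunes the inputs to medium spiny neurons (MSNs), the principal GABA neurons, which are divided by their dopamine receptor into D1 and D2 types.

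Nuclei came from the nucleus accumbens shell of adult Long-Evans rats, a ventral striatal region, with no treatment named in the labels. There were 3 pools from males and 3 from females, each of 4 animals of one sex aged 90 to 100 days, so a library was 1 pool and the spread given below is between pools. The study compared the sexes. The labels also divide the libraries in another way that is balanced over sex: male pool 1 and female pool 3 have the library source transcriptomic (label set A), and male pools 2 and 3 and female pools 1 and 2 have transcriptomic single cell (label set B).

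Set A stood apart in more than its label. It gave 9000 and 16764 barcodes per library against 3567 to 4847 in set B, and 426 and 1579 of the 2008 nuclei classed as glutamatergic-like came from its 2 pools. After filtering, 34362 nuclei with 179929807 unique molecular identifiers (UMIs, molecules counted once) were kept, 2807 to 14325 nuclei and 10511606 to 73291060 UMIs per pool. Barcodes with 5% or more mitochondrial UMIs, which were removed, made up 2.28% and 1.55% of the set A libraries and 13.1% to 40.7% of the set B libraries. The share removed as doublets, set by the number of nuclei, was 7.04% and 13.2% in set A and 2.3% to 2.5% in set B. Any pair of pools shared at most 52 barcode sequences, at most 0.645% of a pool. The 6 genes of the general MSN list summed to 3328 to 5429 CPM (UMIs of a gene per 1000000 UMIs) over all nuclei of a pool, so the genes that define the labelled tissue were present. Of the nuclei, 64.6% fell into clusters named from marker genes (written with -like), 23.025% into 7 clusters called by number and 12.4% into clusters with markers of more than 1 kind of cell, which were left out of the class values. Those mixed clusters stayed in the sums over all nuclei. They held 2128 and 1614 nuclei in male pool 1 and female pool 3 (set A), against 93 to 189 in set B pools. The 8 genes and the genes of their pathway were kept out of the clustering. A level is the CPM of a gene within a class and pool. Reads come from the 3' end of transcripts, so levels are compared between classes for 1 gene and never between genes.

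Each gene had its own order of classes. Cnr1 was highest in cluster 23, an unnamed cluster led by Il1rapl2, Pde3a, Egfr and Kit. Mgll was highest in astrocyte-like nuclei, Abhd6 in cluster 8 (a neuron cluster with D1 and eccentric MSN markers), and Napepld and Faah in mature oligodendrocyte-like nuclei. Dagla, Daglb and Abhd12 had their highest mean in microglia-like nuclei. The highest class mean was 37.9 times the lowest for Cnr1, 32.1 times for Faah, 15.8 times for Daglb, 13.1 times for Mgll, 11.9 times for Napepld, 8.44 times for Abhd12, 7.27 times for Abhd6 and 6.43 times for Dagla. Neighbours in these orders mostly overlapped: of the 20 pairs of neighbouring classes per gene, 19 overlapped for Cnr1, Daglb, Faah and Abhd12 and all 20 for the other genes.

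**Figure D1:**
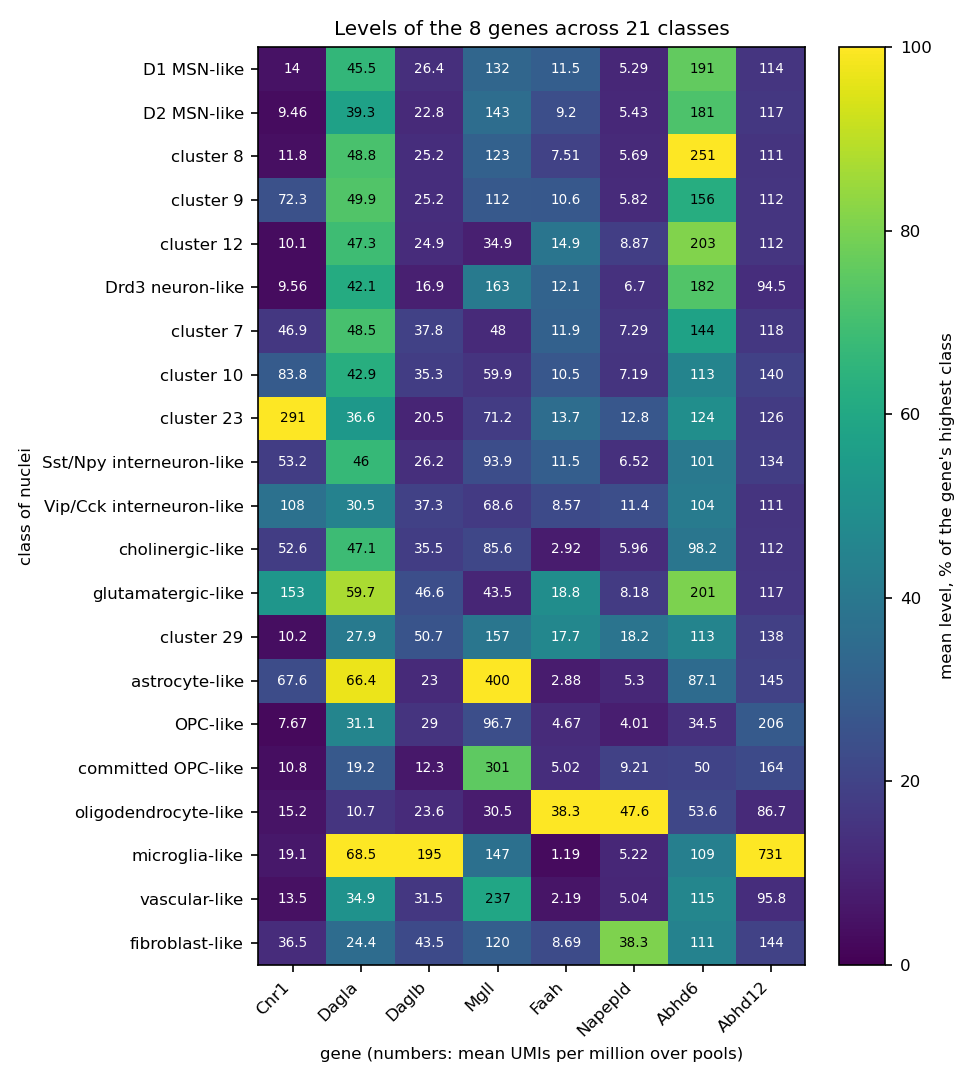
Mean level of each gene (columns) in each of 21 classes of nuclei (rows), printed as CPM over the pools with at least 10 nuclei of the class; colour gives the level as a percentage of the same gene's highest class. Cnr1 peaks in cluster 23 at 291, Mgll in astrocyte-like nuclei at 400.0, Abhd12 in microglia-like nuclei at 731, and Faah and Napepld together in oligodendrocyte-like nuclei at 38.3 and 47.6.

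Cnr1, the receptor, was highest in cluster 23. In this cluster, which held 295 nuclei, Cnr1 stood at 234, 196 and 283 CPM for the females (pools 1 to 3) and at 329, 425 and 280 for the males, a mean of 291 ± 79.9 (SD, n = 6 pools). All 6 values lay above the glutamatergic-like class, which stood at 172 and 134 in its 2 measured pools, and above the Vip/Cck interneuron-like class. Among all classes only cluster 9 reached into the range of cluster 23, at 205 in female pool 3. Cluster 9 (1576 nuclei) was led by Cck, Hba-a1, Cfl1 and Calm2. It had 3 of 6 D1 MSN, 3 of 6 D2 MSN and 4 of 7 astrocyte markers raised, so it is not read as 1 kind of cell. Cluster 23 kept its number because it had fewer than the 3 raised markers that a name needed, including for the Pvalb/Pthlh interneuron list: Kit, a receptor tyrosine kinase, stood at 398 ± 115 and Pvalb, the calcium buffer of fast-spiking interneurons, at 9.40 ± 10.3.

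The next classes for Cnr1 were Vip/Cck interneuron-like nuclei at 108 ± 51.7 (n = 6), cluster 10 (led by Lypd6b, Sema3c, Gbx1 and Lhx8) at 83.8 ± 23.2, cluster 9 at 72.3 ± 73.0 and astrocyte-like nuclei at 67.6 ± 14.99. Sst/Npy interneuron-like nuclei stood at 53.2 ± 25.3 and cholinergic-like nuclei at 52.6 ± 42.5. Cluster 7 (led by Bnc2, Reln, Ebf1 and Trpc4) stood at 46.9 ± 23.8. These classes overlapped one another from pool to pool and their order among themselves is not resolved. Cnr1 in Vip/Cck interneuron-like nuclei averaged 170 in set A and 77.6 in set B, where each pool gave 17 to 22 nuclei. In astrocyte-like nuclei Cnr1 was at 53.9 to 93.3 CPM, and all 6 pools lay above the range of the oligodendrocyte-like nuclei, 6.90 to 32.0.

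**Figure D2:**
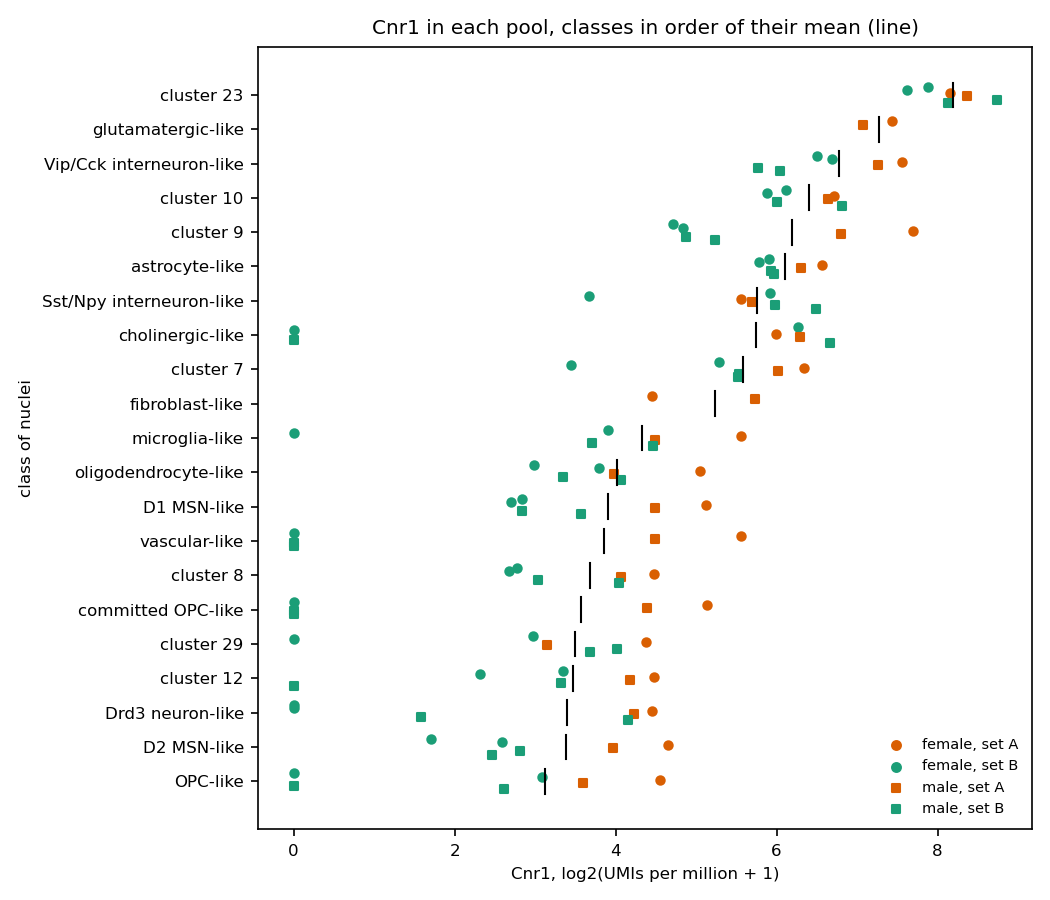
Cnr1 in each pool on a log2(CPM + 1) axis, with classes ordered by their mean (black line); circles are female and squares male pools, orange label set A and green label set B. Cluster 23 lies between 196 and 425 CPM, and the MSN-like classes lie among the glial classes at the lower end.

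MSN-like nuclei, by far the largest neuron classes, held little Cnr1. The D1 MSN-like class stood at 14.0 ± 11.4 CPM and the D2 MSN-like class at 9.46 ± 8.398 (n = 6 pools each). Oligodendrocyte-like nuclei stood at 15.2 ± 8.86, and the difference from D1 MSN-like nuclei was 1.26 ± 5.02 within pools, with the D1 class lower in 4 of 6. With every nucleus thinned to 1000 UMIs, 1.30% of D1 MSN-like nuclei (exact 95% interval 1.01% to 1.64%) and 1.22% of D2 MSN-like nuclei (0.904% to 1.60%) had a Cnr1 UMI. The share was 2.10% (1.63% to 2.67%) in oligodendrocyte-like nuclei, taken here as a glial class for comparison. Median depths before thinning were 5469 UMIs for D1 MSN-like and 1824 for oligodendrocyte-like nuclei. Whether the Cnr1 UMIs of the oligodendrocyte-like class are background was not tested. The thinned MSN-like shares were thus not above the share in this glial class, and neither expression of Cnr1 in MSN-like nuclei nor its absence is read from them. In astrocyte-like nuclei 6.81% (5.83% to 7.91%) had a Cnr1 UMI, and in cluster 23 the share was 25.7% (20.8% to 31.1%). Without thinning the shares were 8.65% for D1 MSN-like, 3.43% for oligodendrocyte-like, 15.6% for astrocyte-like and 66.1% for cluster 23 nuclei, so the order of the D1 MSN-like and oligodendrocyte-like shares turns with the depth. Intervals cover counting error only.

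Dagla, the lipase that makes most 2-AG at adult synapses, differed least among classes. Its mean was 66.4 ± 12.98 CPM in astrocyte-like nuclei and 68.5 ± 39.9 in microglia-like nuclei, where the value in female pool 2 was 0 in only 10 nuclei. D1 MSN-like nuclei stood at 45.5 ± 8.01 and D2 MSN-like nuclei at 39.3 ± 6.03. The lowest class was oligodendrocyte-like, with 3.45, 25.8 and 14.9 for the females and 10.6, 3.92 and 5.24 for the males. All D1 MSN-like values, 37.0 to 55.1, lay above these.

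Daglb, the second diacylglycerol lipase, which is known for 2-AG production in microglia and macrophages, was highest in microglia-like nuclei. It stood there at 223, 416 and 148 CPM for the females (pools 1 to 3) and at 215, 72.2 and 94.5 for the males. The highest of these rested on 5 UMIs in 10 nuclei and the lowest on 6 UMIs. All 6 lay above the next class, cluster 29, at 50.7 ± 9.96, and above astrocyte-like nuclei at 14.6 to 34.2. In the remaining classes Daglb ranged from 12.3 to 50.7 on average, with D1 MSN-like nuclei at 26.4 ± 3.16 and D2 MSN-like nuclei at 22.8 ± 2.09.

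Mgll encodes monoacylglycerol lipase, the main hydrolase of 2-AG in brain. In astrocyte-like nuclei it stood at 220, 510.2 and 477 CPM for the females (pools 1 to 3) and at 570, 415 and 208 for the males, a mean of 400.0 ± 153 (SD, n = 6). The class held 12.3% ± 2.81 of all Mgll UMIs and 3.96% of all UMIs. Within it 2 clusters differed. In cluster 5, led by Slc1a2 and Gldc, Mgll stood at 278 to 665. In cluster 15, led by Itih3, Slc6a11 and Slc25a18, it stood at 81.7 to 219. Cluster 5 was higher in all 6 pools and the ranges did not overlap, with a mean difference of 315 ± 93.0. Cnr1 and Dagla were also higher in cluster 5 in all 6 pools, 80.6 against 38.7 and 71.5 against 54.4 on average, but their ranges overlapped. Abhd6 was lower in cluster 5 in all 6 pools (83.0 against 98.9), and Abhd12 was higher in 3 of 6. These 2 clusters were compared after their values had been seen, so no test is given.

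Mgll also differed between the classes of the oligodendrocyte lineage. It stood at 96.7 ± 28.1 in oligodendrocyte precursor (OPC)-like nuclei, 301 ± 92.1 in committed oligodendrocyte precursor-like nuclei (n = 5 pools, 142 nuclei in all pools) and 30.5 ± 5.52 in mature oligodendrocyte-like nuclei. The committed class was higher than both others in all 5 pools with no overlap. Napepld and Faah had another order: their means were low in OPC-like and committed nuclei and highest in mature nuclei. D1 and D2 MSN-like nuclei held Mgll at 132 ± 31.2 and 143 ± 33.5.

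**Figure D3:**
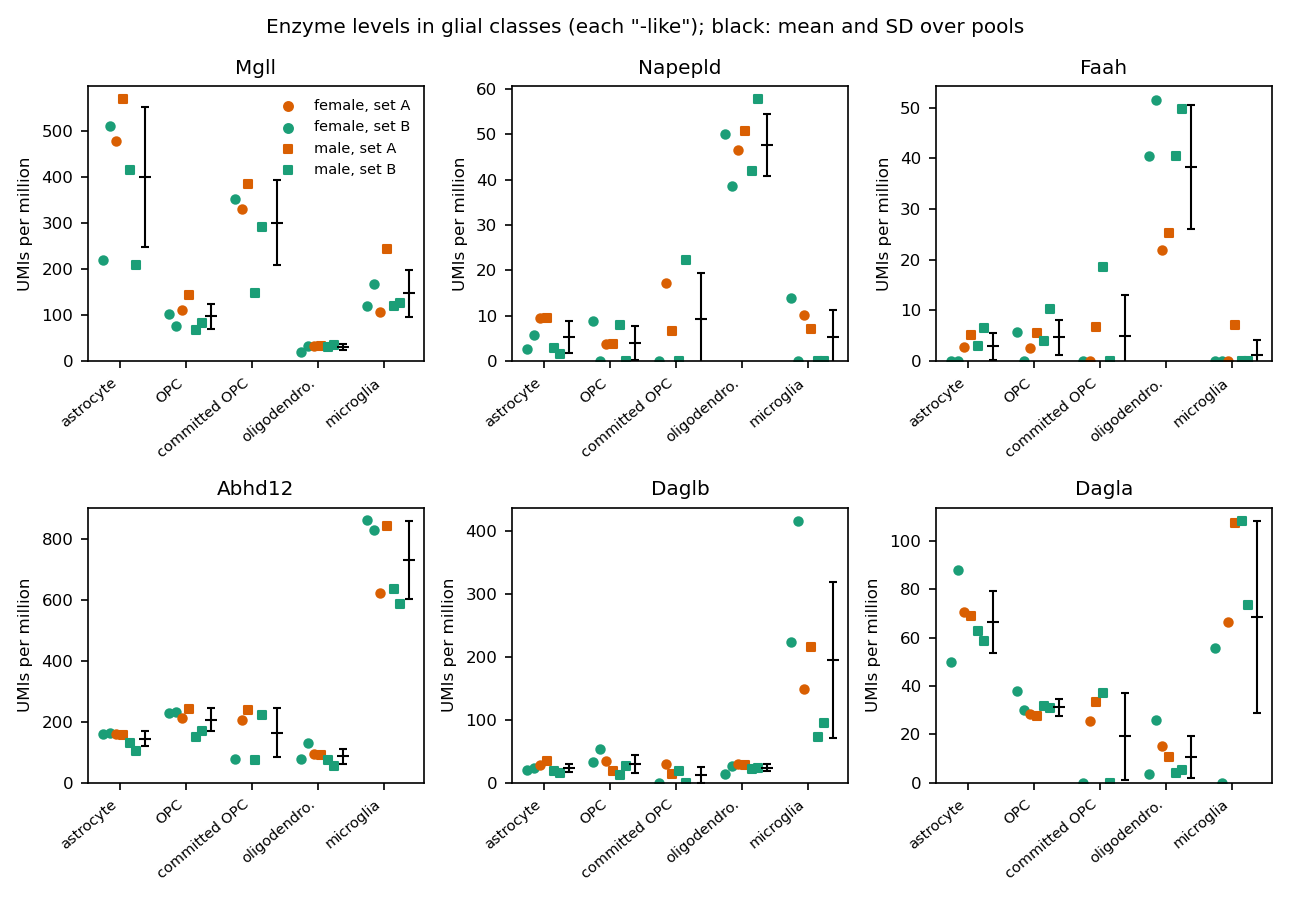
Levels of 6 enzymes in 5 glial classes, in CPM; each point is a pool (circles female, squares male; orange label set A, green label set B) and the black bar gives the mean and SD. Mgll is high in astrocyte-like and committed precursor nuclei and low in mature oligodendrocyte-like nuclei, where Napepld and Faah are at their highest; Abhd12 and Daglb peak in microglia-like nuclei.

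Abhd6 encodes a membrane hydrolase that cleaves 2-AG on the postsynaptic side. Its highest levels were in neurons, at 251 ± 35.7 CPM in cluster 8, 203 ± 45.4 in cluster 12 (led by Chst9, Col14a1 and Grm8), 191 ± 22.8 in D1 MSN-like nuclei and 181 ± 30.1 in D2 MSN-like nuclei. Cluster 8 was above D1 MSN-like nuclei in all 6 pools, by 60.1 ± 24.4, although the ranges across pools overlapped. The D1 class, at 156 to 209, lay wholly above astrocyte-like nuclei, at 66.5 to 107. OPC-like nuclei were lowest, at 34.5 ± 28.7.

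Abhd12 encodes a lipase better known for hydrolysing lysophosphatidylserine than 2-AG, and its loss in humans causes the neurodegenerative disease PHARC. In microglia-like nuclei it stood at 864, 832 and 624 CPM for the females (pools 1 to 3) and at 844, 637 and 588 for the males, a mean of 731 ± 127. All of these lay above OPC-like nuclei, the next class, at 151 to 241. With nuclei thinned to 1000 UMIs, 47.3% of microglia-like nuclei had an Abhd12 UMI (exact 95% interval 41.8% to 52.8%) against 13.5% (12.1% to 14.9%) of astrocyte-like nuclei. The remaining 20 class means lay between 86.7 and 206, a range of 2.38-fold.

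Napepld encodes the phospholipase D that releases anandamide and related amides from their membrane precursors. In oligodendrocyte-like nuclei it stood at 50.0, 38.7 and 46.5 CPM for the females (pools 1 to 3) and at 50.7, 41.8 and 57.7 for the males. Among the classes measured in all 6 pools the next was cluster 29, at 18.2 ± 13.1; fibroblast-like nuclei, measured in 2 set A pools, stood at 38.3 ± 4.93. OPC-like nuclei were lowest at 4.01 ± 3.74. The oligodendrocyte-like class held 24.7% ± 11.6 of all Napepld UMIs and 4.45% of all UMIs. In D1 MSN-like nuclei thinned to 1000 UMIs the share with a Napepld UMI was 0.415% (0.260% to 0.628%), against 4.88% (4.15% to 5.70%) of oligodendrocyte-like nuclei.

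Faah encodes fatty acid amide hydrolase, which ends anandamide signalling. In oligodendrocyte-like nuclei it stood at 40.5, 51.5 and 22.0 CPM for the females (pools 1 to 3) and at 25.3, 40.5 and 49.8 for the males, with both set A pools below all set B pools. D1 MSN-like nuclei stood at 11.5 ± 4.33 and D2 MSN-like nuclei at 9.20 ± 3.24. Astrocyte-like nuclei were at 2.88 ± 2.62, with no Faah UMI in 2 of 6 pools, and microglia-like nuclei held 1 Faah UMI in 447 nuclei. A Faah-like gene, Faahl, is listed among the same features with a mean of at most 0.295 in any class and label set; how reads that fit both genes were counted is not stated by the labels or headers, so the level of Faah is uncertain to that extent.

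Napepld and Faah shared their highest class, and so did Daglb and Abhd12, and their promoters are shown for these pairs. RefSeq's table for rat (build GRCr8, not the build of the counts) held promoters for 6 of the 8 genes and none for Cnr1 or Dagla. The windows are the 250 bases before the annotated start, 5′ to 3′ on the gene's strand. Capitals mark the letters GGGCGG (a GC box), CACGTG (an E-box), GAGGAA (a core that PU.1 can bind) and ACAAAG (a core that Sox factors can bind), read on both strands, with no overlap between matches of different motifs. Napepld lies at chr4:14253010-14253259 on the plus strand, Faah at chr5:134735397-134735646, Daglb at chr12:16215759-16216008 and Abhd12 at chr3:160179930-160180179, the last 3 on the minus strand.
Napepld: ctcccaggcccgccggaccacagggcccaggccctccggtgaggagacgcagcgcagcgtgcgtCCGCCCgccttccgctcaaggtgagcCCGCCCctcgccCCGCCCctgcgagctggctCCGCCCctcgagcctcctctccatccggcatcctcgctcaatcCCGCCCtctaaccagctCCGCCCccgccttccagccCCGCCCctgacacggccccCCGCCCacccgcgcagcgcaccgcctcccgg
Faah: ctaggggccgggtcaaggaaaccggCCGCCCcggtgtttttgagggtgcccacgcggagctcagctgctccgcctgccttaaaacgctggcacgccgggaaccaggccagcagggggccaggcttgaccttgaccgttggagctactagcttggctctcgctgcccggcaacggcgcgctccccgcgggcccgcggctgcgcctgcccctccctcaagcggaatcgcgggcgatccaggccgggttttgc
Daglb: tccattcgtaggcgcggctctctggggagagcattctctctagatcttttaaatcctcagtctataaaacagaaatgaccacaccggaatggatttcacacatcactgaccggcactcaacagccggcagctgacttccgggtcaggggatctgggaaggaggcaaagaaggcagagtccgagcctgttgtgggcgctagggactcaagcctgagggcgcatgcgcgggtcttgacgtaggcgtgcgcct
Abhd12: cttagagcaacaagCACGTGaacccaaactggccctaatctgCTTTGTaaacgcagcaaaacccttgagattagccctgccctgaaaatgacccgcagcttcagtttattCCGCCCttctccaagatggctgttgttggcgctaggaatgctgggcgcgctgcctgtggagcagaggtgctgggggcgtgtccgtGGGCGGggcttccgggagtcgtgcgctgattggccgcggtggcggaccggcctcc

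The Napepld window held 8 matches to GGGCGG or its reverse complement and was 77.2% G or C, and the Faah window held 1 match and was 70.4% G or C. The Abhd12 window held 2 matches to GGGCGG, 1 to CACGTG and 1 to ACAAAG, and the Daglb window none of the 4 motifs. Of all 33469 promoter windows of the same length, 30.5% held GGGCGG, 5.59% CACGTG, 23.3% GAGGAA and 16.3% ACAAAG, and the median window was 51.2% G or C. A match is a description of letters, not a bound site.

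Classes were then compared within pools by edgeR's quasi-likelihood test on counts summed per class and pool, with the pool as a block and p-values adjusted over all genes tested (Benjamini-Hochberg). A gene was called at an adjusted p under 0.05. Since the members and pairs were chosen with earlier results of these data known, each count of members stands beside the share of all genes called. Astrocyte-like against oligodendrocyte-like nuclei gave calls for 7 of the 8 genes, where 55.9% of all 10467 genes tested were called. Mgll was 10.7 times higher in astrocyte-like nuclei (log2 3.42 ± 0.18 SE, adjusted p = 3.34e-10), Dagla 5.77 times (2.53 ± 0.23, 1.51e-07) and Cnr1 3.70 times (1.89 ± 0.20, 7.47e-07). Abhd12 and Abhd6 rose by less, by log2 0.57 ± 0.11 and 0.56 ± 0.13 (adjusted p = 0.000553 and 0.00225). Faah was 11.1 times lower (-3.48 ± 0.34, 3.81e-07) and Napepld 8.68 times lower (-3.12 ± 0.25, 4.91e-08). Daglb gave -0.22 ± 0.18 and was not called (adjusted p = 0.306). The median over the members was 0.57 and over all genes -0.12. The Abhd6 call was lost when classes were set from the markers alone (adjusted p = 0.166).

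OPC-like against oligodendrocyte-like nuclei placed the Napepld and Faah difference within one lineage. Napepld was 11.6 times lower in OPC-like nuclei (log2 -3.54 ± 0.33, adjusted p = 1.54e-07) and Faah 7.77 times lower (-2.96 ± 0.33, 1.09e-06). Mgll was 3.08 times higher (1.62 ± 0.19, 1.58e-06), Dagla 2.91 times (1.54 ± 0.34, 0.00132) and Abhd12 2.22 times (1.15 ± 0.12, 5.45e-07). These 5 of 8 calls compare with 47.5% of 10231 genes. Cnr1 missed the threshold at -0.93 ± 0.37 (adjusted p = 0.0515) and was called lower under 4 of the 12 alternative settings that tested it, one of them the fit without female pool 2; with classes set from the markers alone it gave 0.05; Abhd6 gave -0.55 ± 0.28 (0.119), called lower under 4 of 15 alternatives, one of them without female pool 3, and Daglb 0.01 ± 0.26 (0.978).

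Microglia-like against astrocyte-like nuclei, in the 5 pools with at least 20 microglia-like nuclei (female pool 2, with 10, was dropped), gave 4 calls among the 6 members with enough counts, where 43.4% of 9071 genes were called. Daglb was 5.31 times higher in microglia-like nuclei (log2 2.41 ± 0.24, adjusted p = 1.25e-07) and Abhd12 4.09 times higher (2.03 ± 0.17, 9.18e-09). Mgll was 3.20 times lower (-1.68 ± 0.22, 3.47e-06) and Cnr1 3.49 times lower (-1.80 ± 0.31, 8.98e-05). Dagla and Abhd6 gave 0.06 ± 0.23 and -0.08 ± 0.22 and were not called (adjusted p = 0.867 and 0.796). Faah and Napepld were too low in both classes to be tested.

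Among neurons, cluster 23 was set against Sst/Npy interneuron-like nuclei. It stands in for a Pvalb/Pthlh interneuron class, which no cluster met the rule to be named as, and was put in its place after the data were seen; since it is also the class with the highest Cnr1, the Cnr1 difference is partly fixed by that choice. Cnr1 was 6.05 times higher in cluster 23 (log2 2.60 ± 0.17, adjusted p = 1.40e-14, higher in 6 of 6 pools), with 29.8% of 5846 genes called. Abhd6 was 1.34 times higher (0.43 ± 0.16, 0.0362), a call that was lost under 12 of 15 alternatives, among them leaving out female pool 2, female pool 3, male pool 1 or male pool 2. Dagla, Mgll and Abhd12 gave -0.15 ± 0.24, -0.18 ± 0.18 and 0.02 ± 0.15 and were not called (adjusted p = 0.690, 0.506 and 0.965), and Daglb, Faah and Napepld were not tested.

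D2 MSN-like against D1 MSN-like nuclei gave small differences. Cnr1 was lower in the D2 class (log2 -0.51 ± 0.11, adjusted p = 0.000964, lower in 6 of 6 pools), between levels that the glial classes also showed, and the call was lost with DESeq2, in label set B alone and without the pool block. Dagla was lower by log2 -0.20 ± 0.06 (adjusted p = 0.0281, lower in 5 of 6 pools), a call lost when female pool 1, 2 or 3 or male pool 1 or 3 was left out (the adjusted p over its alternatives ran from 0.00781 to 0.9999). Those 2 of 8 compare with 15.8% of 13730 genes. Mgll gave 0.11 ± 0.04 (0.0825) and was called under 5 of 17 alternatives, one of them without female pool 3. The others were not called: Faah gave -0.28 ± 0.13 (0.153), Napepld 0.17 ± 0.17 (0.608), Daglb -0.16 ± 0.08 (0.216), Abhd6 -0.06 ± 0.04 (0.419) and Abhd12 0.04 ± 0.05 (0.732).

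Sex was the question of the study, and none of the 8 genes was called for it. In the sum over all nuclei, where edgeR called 0.0419% of 16705 genes, 0 of 8 members passed, 0 had an unadjusted p under 0.05 and DESeq2 called 0. A level over all nuclei also moves with the make-up of the library, so it does not tell a change within a class from a change in shares. Abhd12 stood at 133, 135 and 132 CPM for the females (pools 1 to 3) and at 128, 109 and 107 for the males. The female values lay above the male values without overlap, as in 6.51% of genes either way, and the difference was log2 0.29 ± 0.13 (adjusted p = 0.649). Cnr1 stood at 24.8, 13.3 and 82.1 for the females and 54.3, 20.6 and 31.9 for the males, with a log2 difference of -0.002 ± 0.27 (female minus male, adjusted p = 0.999). For the other 6 genes the sexes overlapped as well: Abhd6 gave 0.32 ± 0.17, Daglb 0.25 ± 0.15, Mgll 0.25 ± 0.25, Dagla 0.10 ± 0.15, Napepld 0.02 ± 0.26 and Faah -0.29 ± 0.19, with adjusted p from 0.649 to 0.988.

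Within classes the result was the same in kind. In 14 fits, one for each class or cluster with at least 20 nuclei in every pool (the D1 class as its clusters 2 and 3), 87 tests of members gave 0 calls with edgeR and 0 with DESeq2, against 0.083% of all tests called, and 3 had an unadjusted p under 0.05. Female pool 2 gave 31 nuclei to cluster 2 and 920 to cluster 3, where the other pools gave 341 to 1095 and 165 to 469. These 2 clusters thus do not divide the D1 class alike in all pools. The differences for Cnr1 ran from -0.53 in cluster 23 to 0.47 in cluster 9. Abhd12 was above 0 in all 14 fits (0.02 to 0.33) and so was Abhd6 (0.02 to 1.39), but the 14 fits share the same 6 pools and are not independent. The largest value, Abhd6 in OPC-like nuclei, rested on female pools at 29.1, 45.1 and 82.0 against male pools at 38.7, 11.9 and 0, and Abhd6 in this class was also called between the label sets. The sex difference was also compared between D2 and D1 MSN-like nuclei, where edgeR called 0 of 8 members (0 at an unadjusted p under 0.05) and 0.0364% of 13730 genes; Cnr1 gave 0.02 ± 0.23 and Mgll 0.01 ± 0.09. With 3 pools per sex, differences of the size of these standard errors were not resolved. Larger ones were not called either, such as Abhd6 at log2 1.39 in OPC-like nuclei.

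**Figure D4:**
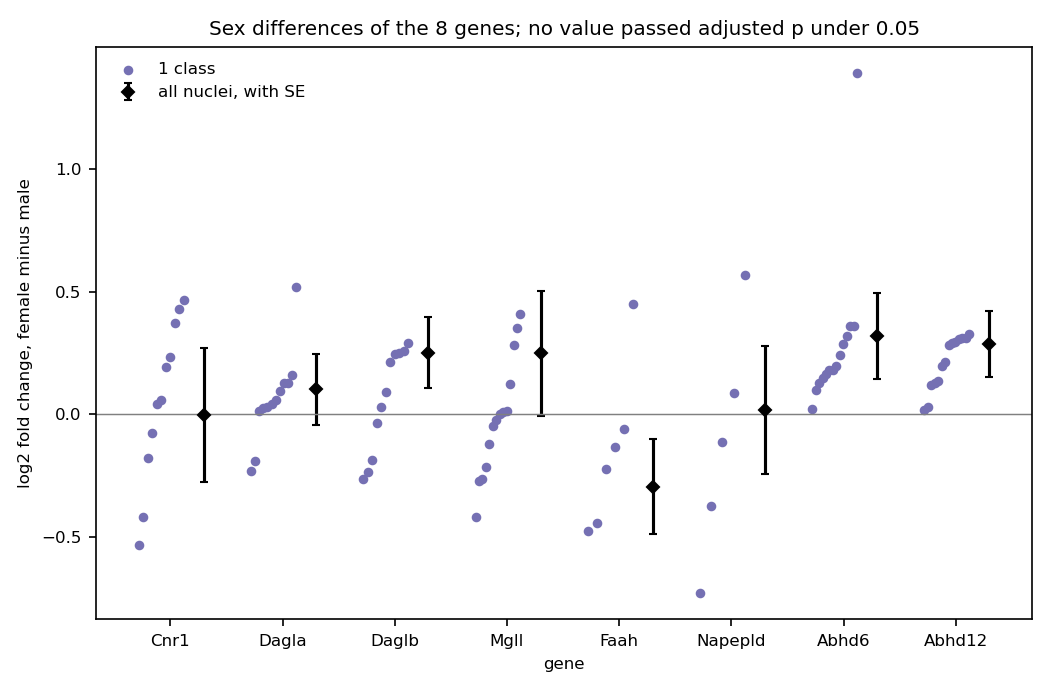
Log2 fold change, female minus male, of each gene; purple points are the classes in which the gene could be tested, in order of value, and the black diamond is the sum over all nuclei with its standard error. Abhd6 and Abhd12 lie above 0 in all 14 classes and none of the values passed an adjusted p under 0.05.

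Many more genes were called between the label sets than between the sexes. In the sum over all nuclei 30.3% of 16705 genes were called between set B and set A, and among the members Cnr1 was 3.16 times lower in set B (log2 -1.66 ± 0.28, adjusted p = 0.00323) and Dagla 1.40 times lower (-0.48 ± 0.15, 0.0390). The Cnr1 call was lost without female pool 3 (adjusted p = 0.118), and the Dagla call without any 1 of 5 pools, all but female pool 2. Cnr1 stood at 82.1 and 54.3 in the set A pools and at 13.3 to 31.9 in the set B pools. Glutamatergic-like nuclei held 3323 of the 10119 Cnr1 UMIs of all pools, and 0% to 41.6% of those of a single pool. Of the 2008 such nuclei, 1579 and 426 came from the set A pools. A sum over all nuclei also moves with the make-up of the library, and that part was not tested. Within classes 13 of 87 member tests passed, where 18.4% of all tests did. Cnr1 was lower in set B in cluster 2 (log2 -1.83, adjusted p = 0.000102) and cluster 3 (-2.02, 0.00331), the 2 clusters of the D1 class, in D2 MSN-like nuclei (-2.16, 0.00116), in cluster 7 and in cluster 9 (-2.30, 1.61e-07). Cluster 2 held only 31 nuclei in female pool 2, a set B pool that gave 920 to cluster 3. Without female pool 3 the calls in cluster 3 and in D2 MSN-like nuclei were lost. Leaving out 1 pool moved the value between -2.64 (without male pool 1) and -1.31 (without female pool 3) in cluster 2, and between -2.81 and -1.52 for the same omissions in D2 MSN-like nuclei. Mgll was lower in set B in clusters 2, 7 and 10 (-0.62, -1.06 and -0.78, adjusted p = 0.00430, 0.00193 and 0.0159). Dagla was lower in cluster 2 (-0.48, 0.0406) and Abhd6 in OPC-like nuclei (-1.51, 0.0218).

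The sets overlapped for Cnr1 in cluster 23 and did not in astrocyte-like nuclei, D1 MSN-like nuclei, Vip/Cck interneuron-like nuclei and cluster 9. Cluster 23 stood at 283 and 329 in set A and at 196 to 425 in set B, and astrocyte-like nuclei at 93.3 and 78.0 against 53.9 to 61.6. D1 MSN-like nuclei stood at 33.7 and 21.4 in set A and at 5.52 to 10.8 in set B, and cluster 9 at 205 and 111 against 25.2 to 36.7. Slc17a7, a vesicular glutamate transporter gene of excitatory neurons, was also higher in set A: in D1 MSN-like nuclei it stood at 4.73 and 8.52 in set A and at 0 to 0.526 in set B, and in cluster 9 at 163 and 164 against 0 to 1.36. It was higher in set A as well where the sets overlapped for Cnr1. In cluster 23 Slc17a7 stood at 6.20 and 9.17 in set A and in Sst/Npy interneuron-like nuclei at 4.07 and 13.1, against 0 in every set B pool of both; Cnr1 in the latter class was at 46.0 and 50.8 in set A and at 11.7 to 89.2 in set B. In oligodendrocyte-like nuclei Slc17a7 stood at 19.4 and 37.8 in set A and at 0 in set B, while Cnr1, at 14.7 and 32.0 against 6.90 to 15.7, was not called by edgeR (log2 -0.97 ± 0.44, adjusted p = 0.186). The whole glutamatergic list of 5 genes summed in D1 MSN-like nuclei to 22.6 and 31.8 in set A and to 26.8 to 58.4 in set B, and in cluster 9 to 223 and 231 against 17.7 to 54.9. The part of glutamatergic-like nuclei or their RNA in the Cnr1 difference was not tested. Faah moved the other way, higher in set B in cluster 2 (0.91, 0.0263), D2 MSN-like (0.93, 0.0383) and oligodendrocyte-like nuclei (1.02, 0.0332), calls that DESeq2 did not make. All 3 were lost without female pool 3, male pool 1 or male pool 3, that of cluster 2 also without female pool 1, that of D2 MSN-like nuclei also without female pool 2 or male pool 2, and that of oligodendrocyte-like nuclei also without male pool 2; edgeR's adjusted p reached 0.506, 0.385 and 0.420.

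**Figure D5:**
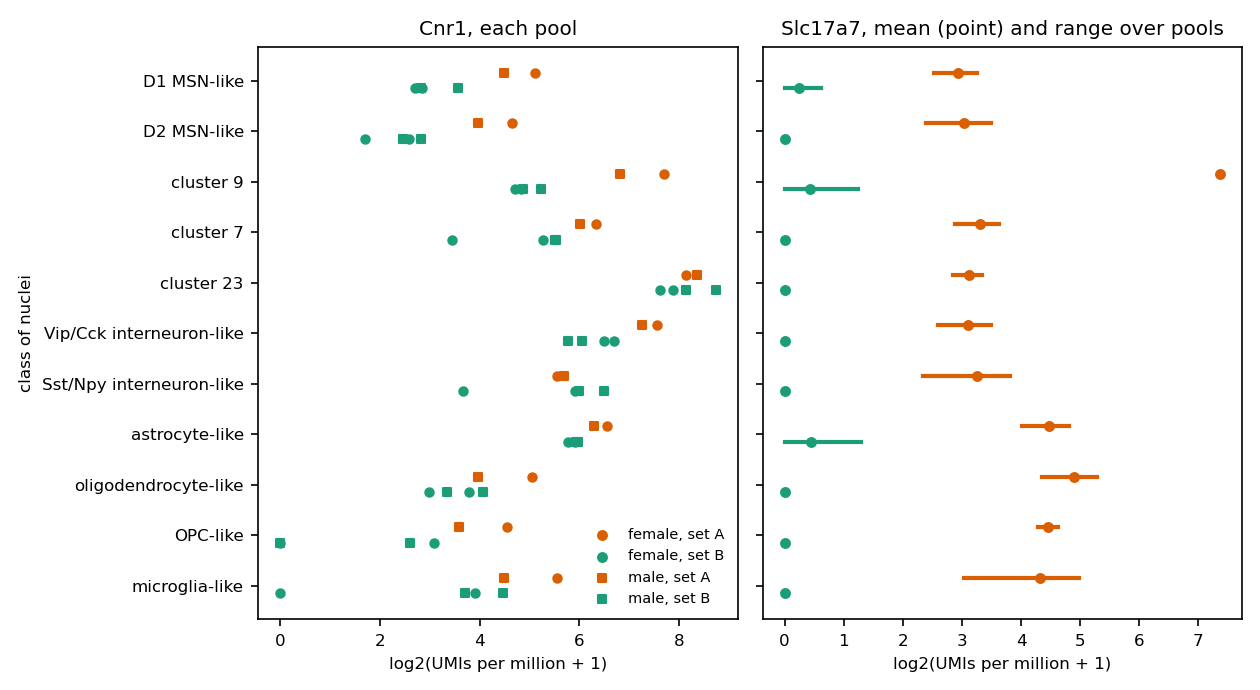
Left, Cnr1 in each pool of 11 classes on a log2(CPM + 1) axis; right, Slc17a7 in the same classes as the mean and the range over the pools of a label set (orange A, green B). Set A exceeds set B for Cnr1 in the MSN-like classes and cluster 9, cluster 23 overlaps, and Slc17a7 is near 0 in set B throughout.

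Other genes of the pathway, 54 in all, were taken from a list of receptors, lipid enzymes, binding proteins and G protein partners. For sex in all nuclei 0 of the 50 tested were called by edgeR. Between D2 and D1 MSN-like nuclei 4 of 41 rose and 7 fell (list median -0.02, all genes -0.01), where 15.8% of all genes were called. Ptgs2, the oxygenase COX-2 that also converts 2-AG, was higher in the D2 class (log2 1.68 ± 0.16, adjusted p = 4.12e-10), and Gnai1, an inhibitory G protein subunit to which the receptor can couple, was lower (-0.76 ± 0.05, 3.57e-14). Gnao1, another such subunit, was higher by 0.31 ± 0.03 (7.26e-09), and Cnrip1, which binds the receptor's tail, was lower by log2 -0.25 ± 0.08 (0.0338). The D2 MSN-like class joined clusters 1, 19 and 28. Cluster 19 (486 nuclei) was led by Nts, Fosb, Fosl2, Nr4a3, Nr4a1, Npas4 and Arc, and none of these led clusters 2 or 3 of the D1 class. The alternative fit with cluster 1 alone as the D2 class was read for the members only. The part of cluster 19 in the Ptgs2 difference was thus not assessed.

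In cluster 23 against Sst/Npy interneuron-like nuclei 6 of 22 rose and 2 fell, where 29.8% of all genes were called. Kcnj3, a channel subunit opened by G protein signalling, was the leading one (2.48 ± 0.16, 2.88e-14), followed by Camk2a (1.10 ± 0.12, 5.36e-09) and Grk3, a receptor kinase (1.58 ± 0.18, 1.08e-08). Astrocyte-like against oligodendrocyte-like nuclei gave 10 higher and 9 lower of 29, where 25.3% of all genes were called higher and 30.6% lower. The list was led by Grk3 (5.05 ± 0.24, 1.11e-10) and the arrestin gene Arrb1 (3.50 ± 0.21, 1.09e-09), with Gnai1 lower (-3.03 ± 0.20, 4.49e-09). In OPC-like against oligodendrocyte-like nuclei 10 of 26 were higher and 6 lower, where 26.3% of all genes were called higher and 21.2% lower, again with Grk3 (4.47 ± 0.26, 3.02e-10) and Arrb1 (2.33 ± 0.16, 2.99e-09) higher and Gnai1 lower (-1.73 ± 0.13, 8.08e-09); both comparisons share the oligodendrocyte-like values. Microglia-like against astrocyte-like nuclei gave 10 higher and 12 lower of 30, where 43.4% of all genes were called. Inpp5d, the phosphatase SHIP1, was higher (8.98 ± 0.35, 5.01e-13), as were Plcb2, a phospholipase C (6.85 ± 0.69, 1.13e-07), and Alox12, a lipoxygenase (5.78 ± 0.61, 2.27e-07), while Gnao1 was lower (-4.51 ± 0.30, 4.93e-10).

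The genes most like each member in their course over the 14 named classes were found by Pearson's r of log2(CPM + 1) among 13660 genes, as a description. For Cnr1 they were Sel1l3 (r = 0.91), RGD1565989 and Ccdc136; for Dagla Camk1d (0.91), Sema4a and Ankrd6; and for Daglb AABR07019449.1 (0.94), Cbl and Crispld1. Mgll ran closest to Zfp467 (0.89), AABR07054564.1 and Zfp516, and Abhd6 to Iqgap2 (0.94), Fam126b and Rgl1. Abhd12 ran with Apobec1 (0.94), Ccl6 and C3, Napepld with Kif13b (0.89), Atg2b and Pan2, and Faah with Slc24a2 (0.83), Pex5l and Plxna4. The classes come from the same 6 libraries, and a single high class can set such a value.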

How the data were processed

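Single-nucleus RNA was captured with the 10x 3' kit version 3.1, per the labels. The deposited values are UMI counts per gene and barcode, made by the authors with Cell Ranger 4.0.0, per the file headers, on build rn6, per the submitters' processing notes; counts were not normalized. Barcodes with at least 500 UMIs, 300 genes and at most 5% mitochondrial UMIs were kept, and 2.30% to 13.2% of a pool's nuclei were removed as doublets scored against simulated pairs. Nuclei were clustered (Leiden, leidenalg 0.10.2) without 87 genes, among them the members, into 35 clusters. A cluster took a name from at least 3 raised markers; the naming thresholds were set after the data were seen. The members and lists were chosen with earlier results of these data known.

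Counts were summed per class and pool and tested with edgeR 4.0.16 (quasi-likelihood, TMM, low counts filtered, Benjamini-Hochberg over all genes tested), with the pool as block between classes and the label set as covariate for sex. Levels needed 10 nuclei in a pool and fits 20. DESeq2 1.42.0, other scaling, filters, class rules and the omission of each pool were alternatives. The fits were also run on simulated counts with known changes. Those counts held no label set or pool effects, so they do not show how the fits fare with such effects. No pools were copies of each other: between pools of one sex, chi-square per degree of freedom was 26.8 or more. Nothing ties a pool number across the sexes. The 3 pools of a sex are separate groups of animals. The p-values for sex and label set were judged against the spread between these 6 pools. Those between classes, with the pool as block, were judged against how class differences varied from pool to pool. Pathway genes are named in order of p, at most 10 per comparison; the 3 most like genes per member follow Pearson's r over 14 classes, among genes with at least 10 CPM in 1 class.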

Additional observations from a re-analysis of the deposited data

Results flagged for a closer look

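In 9 of the 136 groups of 5 or 6 pools examined for a member and class, 1 pool stood apart from the others by Dixon's criterion, which chance meets in about 5% of groups. Cnr1 stood at 46.0 CPM in microglia-like nuclei of female pool 3 (other pools 12.03 to 21.5) and at 32.0 in oligodendrocyte-like nuclei of the same pool (6.90 to 15.7). Mgll stood at 243 in microglia-like nuclei of male pool 1 (107 to 126), and at 19.8, below the others, in oligodendrocyte-like nuclei of female pool 1 (30.04 to 35.4). Faah stood at 26.6 in cluster 23 of female pool 1 (9.33 to 13.8) and at 28.7 in cluster 12 of male pool 3 (8.21 to 15.8). Its 7.15 in microglia-like nuclei of male pool 1, where the other pools had 0, is 1 UMI. Daglb stood at 39.8 in cluster 12 of female pool 2 (19.1 to 25.9), and Abhd12 at 190.0 in cluster 23 of female pool 2 (102 to 124).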

How the results depend on the processing

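For sex, no member was called in any alternative for all nuclei or within classes, and the calls of astrocyte-like against oligodendrocyte-like and microglia-like against astrocyte-like nuclei stayed at 7 and 4 whichever pool was left out. Leaving out each pool gave 0 to 4 called members for the label set in all nuclei, 3 to 17 within classes, 1 to 2 for D2 against D1 MSN-like nuclei and 1 to 2 for cluster 23 against Sst/Npy interneuron-like nuclei. Within classes the label set gave 6 with DESeq2 and 21 with no count filter. D2 against D1 MSN-like nuclei gave 0 with DESeq2 or without the pool block, 1 with no filter, in label set B alone or with cluster 1 alone, and, added after seeing the data, 4 with cluster 8 counted as D1 (cluster 1 alone was also added then). Cluster 23 against Sst/Npy gave 1 with DESeq2, relative log expression scaling, no filter, doublets kept, either label set alone, classes from markers or no pool block. The pool numbers do not pair pools (deviations of same-numbered pools correlated at -0.77, 0.23 and -0.66). A replicate block added to the label set fit left 1 call in all nuclei and 8 within classes; in place of the label set it gave 0 calls for sex, and Napepld -0.0476.

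The following log2 differences turned sign; in the reported fits none of them was called. Cnr1 for sex gave 0.0152 with DESeq2, 0.0355 with relative log expression, 0.0136 with no filter, 0.0056 at 1000 UMIs per nucleus, 0.011 with doublets kept and 0.26 without the label set term, and -0.38 to 0.30 with a pool left out. Napepld for sex gave -0.13 in set B alone. Classes from markers alone gave Cnr1 0.048, Daglb -0.0249 and Abhd6 0.26 in OPC-like against oligodendrocyte-like nuclei, Dagla -0.25 and Abhd6 0.29 (adjusted p = 0.0426, called by edgeR) in microglia-like against astrocyte-like nuclei, and Napepld -0.0644 and Abhd6 0.0791 in D2 against D1 MSN-like nuclei, where Napepld was -0.0281 in set B alone. Daglb in OPC-like against oligodendrocyte-like nuclei gave -0.025 with DESeq2, -0.0391 with relative log expression, -0.0546 with no filter, -0.0111 without the pool block and -0.22 in set A alone. With no filter Dagla gave -0.0576 in microglia-like against astrocyte-like nuclei, where Abhd6 gave 0.0048 in set A alone. In cluster 23 against Sst/Npy, Mgll gave 0.0097 with doublets kept, and Abhd12 gave -0.0079 with DESeq2, -0.0116 with relative log expression and -0.0359 with no filter. Daglb gave 0.0002 in astrocyte-like against oligodendrocyte-like nuclei with cluster 15 alone. With a pool left out, ranges that crossed 0 were, for sex, Dagla -0.0071 to 0.18, Mgll -0.10 to 0.48 and Napepld -0.22 to 0.25; for the label set, Mgll -0.60 to 0.0254 and Faah -0.0132 to 0.39; for microglia-like against astrocyte-like, Dagla -0.0584 to 0.18 and Abhd6 -0.13 to 0.0382; for Daglb, -0.29 to 0.0402 in astrocyte-like and -0.17 to 0.21 in OPC-like against oligodendrocyte-like nuclei; and for Abhd12 in cluster 23 against Sst/Npy, -0.07 to 0.0931. The causes were not tested. Levels moved by over 1 SD in 32 of 1504 cases, all with label set A alone, where 120 did not move. Leaving out 1 pool or using set B alone cannot move a mean by over 1 SD of the same pools, so those cases were no test. Shares of nuclei with a UMI moved with the depth of thinning in 302 of 352, so depth limits what those shares show.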

Other observations

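Cnr1 UMIs were concentrated in few nuclei. The 335 nuclei with at least 5 Cnr1 UMIs were 0.975% of all nuclei and held 26.7% of the 10119 Cnr1 UMIs. Of them 175 were glutamatergic-like, all from label set A, and 163 of these also had a Slc17a7 UMI. Another 33 lay in cluster 23, all with a Gad1 UMI (a GABA synthesis gene) and 0 with Slc17a7, from both label sets. Vip/Cck interneuron-like nuclei gave 27, cluster 10 gave 24 and cluster 9 gave 30, among them 1 nucleus with 130 Cnr1 UMIs. D1 MSN-like nuclei gave 3 of 5306, 1 of them with 35 Cnr1 UMIs, and D2 MSN-like nuclei 2 of 4136. These nuclei were chosen by their Cnr1 count, so no comparison is drawn from them.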
